A study of Mus musculus with 38 samples.

Results

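The comparison described here asked whether the difference between transgenic and wild-type (WT) hippocampus was larger or smaller at 10 months of age than at 6 months, in mice that received placebo. It used the 18 placebo-treated mice of the 38 mice sequenced, chosen by the treatment, age and genotype in the library titles. APPPS1ΔE9 mice (written APPdelta9 in the labels, called Tg below) carry mutant APP and PS1 transgenes on a C57BL/6 background, and the WT animals were of that background too. At 6 months, in the group called pre-plaque, there were 4 Tg and 4 WT mice, and at 10 months, in the group called post-plaque, there were 5 Tg and 5 WT mice, each mouse being 1 library of hippocampal mRNA. The remaining 20 mice received anle138b, a small molecule directed at toxic oligomers, and serve below only as a separate set of animals in which the same contrast was read.

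In this model amyloid-β is cleaved from the overproduced APP and gathers with age into extracellular plaques. Microglia, the resident macrophages of the brain, surround the plaques and turn on a set of genes for lipid sensing, phagocytosis and lysosomal breakdown, much of it through the receptor Trem2 and its signaling adaptor Tyrobp. Astrocytes near plaques raise Gfap. Since RNA was taken from whole hippocampus, more cells of a type and more RNA per cell cannot be told apart in these data.

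Total counts of the 18 libraries were between 15847985 and 27872870. The 4 groups were not spread evenly over the sequencing lanes given in the titles, since all 9 Tg libraries were in lane 5, the 4 WT libraries of 6 months were in lane 4, and the WT libraries of 10 months were in lane 3 except for mouse 56, which was in lane 4. Genotype and lane therefore cannot be told apart at either age. The titles use the same sample number in the same lane for a mouse of each age (mice 56 and 30 in lane 4, mice 87 and 17 in lane 5), so the ages share lane numbers but not a sequencing run, and age and run cannot be told apart. The mice are stated to be male, but the female-specific RNA Xist reached 1154 to 1453 CPM (counts scaled to a common library size), with the summed Y-linked genes at or below 0.206 CPM, in 3 of 4 WT mice at 6 months and in 3 of 5 WT mice at 10 months, and in 0 of 9 Tg mice. The titles of the 4 WT libraries of 6 months say WT while their genotype label names the transgene, and they are used as WT here. Transcripts of the choroid plexus, a tissue that borders the hippocampus, were high in 4 of the 8 libraries of 6 months, with Ttr between 3719 and 7233 CPM in WT mice 30, 31 and 37 and in Tg mouse 17, between 32.3 and 656 CPM in the other 4, and between 15.9 and 241 CPM in the 10 libraries of 10 months.

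Reads from the transgene separated Tg from WT libraries as their titles do. App, to which reads of the APP transgene can be assigned, measured between 1624 and 1791 CPM in WT and between 3855 and 4327 CPM in Tg mice at 6 months, and between 1592 and 1762 CPM in WT and between 3227 and 3705 CPM in Tg mice at 10 months. The genotype effect on App was 1.27 ± 0.07 (log2, SE) at 6 months and 1.11 ± 0.06 at 10 months, and the difference between the ages was -0.16 with a 95% interval from -0.34 to 0.02. Prnp, whose promoter region is part of such transgene cassettes, was higher by 1.28 ± 0.07 at 6 months and by 1.29 ± 0.06 at 10 months, a difference of 0.01 (95% interval -0.18 to 0.20). The pseudogene Lamr1-ps1, which lies beside Prnp on chromosome 2 (131904086 to 131904959, GRCm38), had 0 counts in each of the 9 WT libraries and between 156 and 412 counts in each Tg library. Tg and WT libraries did not overlap in any of these 3 genes at either age.

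At 6 months, 9 of 17681 genes tested passed the threshold for genotype (edgeR's quasi-likelihood test, Benjamini-Hochberg adjusted p under 0.1), which is 0.0509% of the genes, and 8 of the 9 were higher in Tg mice. Besides the reads of the transgene they included the microglial genes Cst7, Clec7a, Itgax and Slamf9. The gene that was lower was Grm3, a metabotropic glutamate receptor, with a genotype effect of -0.25 ± 0.05 (adjusted p = 0.0938). Leaving out Tg mouse 17, one of the libraries with choroid plexus transcripts, raised the number of genes called at 6 months to 249, of which 56 were higher, and DESeq2 called 63 on all mice.

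At 10 months, 102 genes passed, 94 of them higher in Tg mice (0.532% of all genes) and 8 lower (0.0452%). Without the transgene reads, 90 of the genes that were higher are described here. They included genes of the Trem2 pathway (Trem2, Tyrobp), phagocytic and lysosomal genes (Cd68, Ctsd, Ctss, Ctsz, Hexa), complement C1q (C1qa, C1qb, C1qc), Fc receptors (Fcer1g, Fcgr2b, Fcgr3), chemokines (Ccl3, Ccl4, Ccl6) and the transcription factor Irf8. Fewer genes were called without the libraries of high Xist, which leaves 1 WT mouse at 6 months and 2 at 10 months. Fewer were also called when only lanes 4 and 5 were used, which leaves mouse 56 as the single WT mouse of 10 months. A loss of mice alone can lower the number, and it cannot be told apart here from a dependence on which WT libraries were used.

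Whether a genotype effect grew or shrank between the ages is answered only by the test of the difference, (Tg - WT at 10 months) - (Tg - WT at 6 months). In that test 0 of 17681 genes (0%) passed the threshold in edgeR, and the smallest adjusted p was 0.26. With no adjustment 1089 genes had a p under 0.05, 602 with a larger effect in the direction of Tg at 10 months (3.4%) and 487 in the other direction (2.75%). Limma-voom also called 0 genes, with 1112 at an unadjusted p under 0.05, while DESeq2 called 16, of which 11 were positive. The larger number of genes called at 10 months than at 6 months is therefore not by itself a measured growth of the genotype effect of any gene by edgeR.

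**Figure D1:**
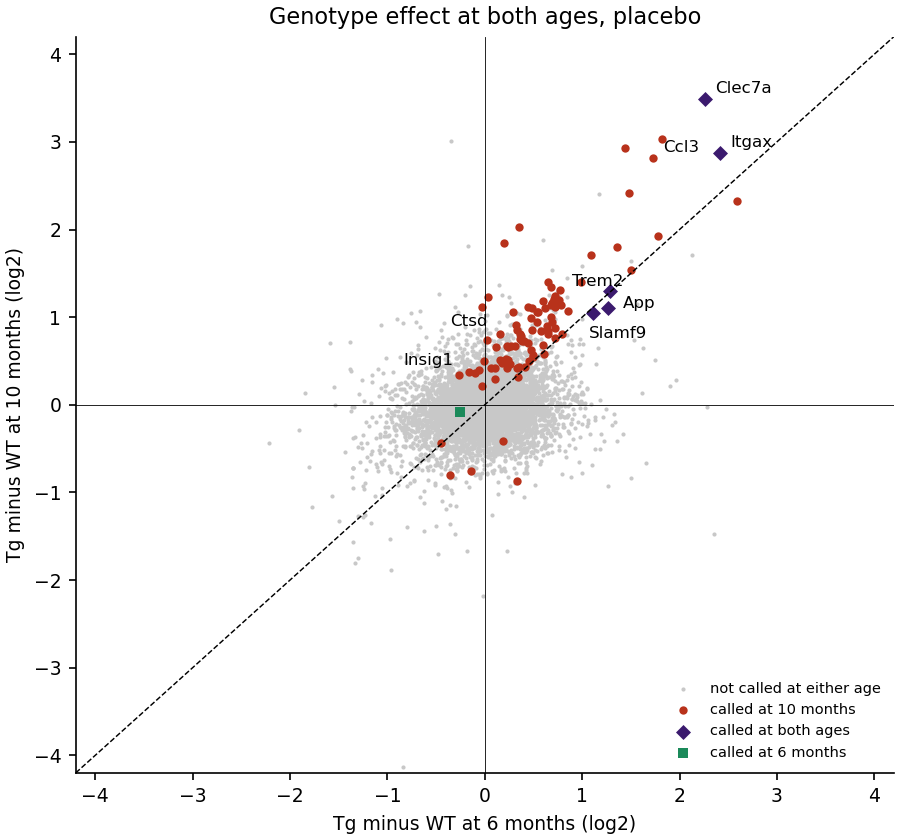
Genotype effect (Tg minus WT, log2) of each tested gene at 6 months on the horizontal axis and at 10 months on the vertical axis, placebo-treated mice; the dashed line marks equal effects, and 5 genes beyond 4.2 on either axis are not drawn. Of the 90 genes called higher at 10 months, 83 had a positive effect at 6 months; that 86 lie above the dashed line follows in part from choosing them by their effect at 10 months.

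Cst7, Clec7a, Itgax and Slamf9 were the microglial genes called at both ages. Cst7, which encodes cystatin F, an inhibitor of lysosomal cathepsins, is barely made by microglia away from plaques. In WT mice it had between 1 and 7 counts per library at 6 months and 3 or 4 counts at 10 months. In Tg mice it measured 2.88, 5.40, 6.98 and 7.94 CPM at 6 months and 8.35, 10.3, 10.6, 15.8 and 19.5 CPM at 10 months. Every Tg mouse of 10 months was above every Tg mouse of 6 months, and Tg and WT did not overlap at either age. Cst7 rose with age in Tg mice by 1.16 (adjusted p = 0.025), but the difference of the genotype effects, 1.21, had a wide interval from -0.33 to 2.74 (adjusted p = 0.863).

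Clec7a (Dectin-1), a pattern recognition receptor that marks microglia at plaques, measured 0.410, 0.717, 0.826 and 1.08 CPM in WT mice at 6 months and 0.30, 0.556, 0.625, 0.752 and 0.843 CPM in WT mice at 10 months. In Tg mice it measured 2.34, 3.17, 3.36 and 5.85 CPM at 6 months and 5.75, 6.10, 6.41, 7.36 and 9.65 CPM at 10 months. The WT groups overlapped, whereas only the highest Tg mouse of 6 months, mouse 75, reached into the range of 10 months. The genotype effect was 2.26 ± 0.32 at 6 months and 3.49 ± 0.29 at 10 months, and the difference of 1.23 had a 95% interval from 0.32 to 2.14 (adjusted p = 0.705). Without the 4 libraries with choroid plexus transcripts, which leaves 1 WT and 3 Tg mice at 6 months, this difference was 0.19, and that of Cst7 was -0.72. Without the libraries of high Xist that of Cst7 was 0.78.

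Itgax (CD11c), an integrin of activated microglia, and Slamf9 had smaller differences. Itgax was between 1.07 and 2.77 CPM in Tg mice at 6 months and between 2.69 and 5.56 CPM at 10 months, against 0.215 to 0.623 CPM in all WT mice. Its genotype effect was 2.41 ± 0.36 and then 2.87 ± 0.30, a difference of 0.46 (95% interval -0.57 to 1.48), or -0.22 without the libraries of high Xist. Slamf9, a receptor of the SLAM family, was higher by 1.12 ± 0.20 at 6 months and by 1.04 ± 0.18 at 10 months, a difference of -0.07 with an interval from -0.63 to 0.49. For both genes the interval includes 0, and that of Itgax also includes the difference measured for Clec7a.

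The Trem2 pathway lay between these. Tyrobp, the adaptor that carries the signal of Trem2, measured 14.5, 17.9, 17.9 and 20.02 CPM in WT and 22.5, 24.4, 26.1 and 37.4 CPM in Tg mice at 6 months. At 10 months it measured 12.1, 12.6, 13.5, 13.5 and 14.5 CPM in WT and 27.6, 33.4, 33.7, 36.1 and 43.6 CPM in Tg mice. Tg and WT were separate at both ages, and the gap was wider at 10 months. The WT ranges of the ages met at 14.5 CPM, the lower one being that of 10 months, while the Tg ranges of the ages overlapped. The genotype effect was 0.65 ± 0.15 and then 1.40 ± 0.14, a difference of 0.75 (95% interval 0.33 to 1.17, adjusted p = 0.635). Trem2 itself had a difference of 0.52 (0.04 to 0.998, adjusted p = 0.789), and Cd68, a lysosomal glycoprotein of macrophages, of 0.44 (-0.06 to 0.93, adjusted p = 0.834). Without the libraries of high Xist the difference was 0.45 for Tyrobp and 0.18 for Cd68.

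**Figure D2:**
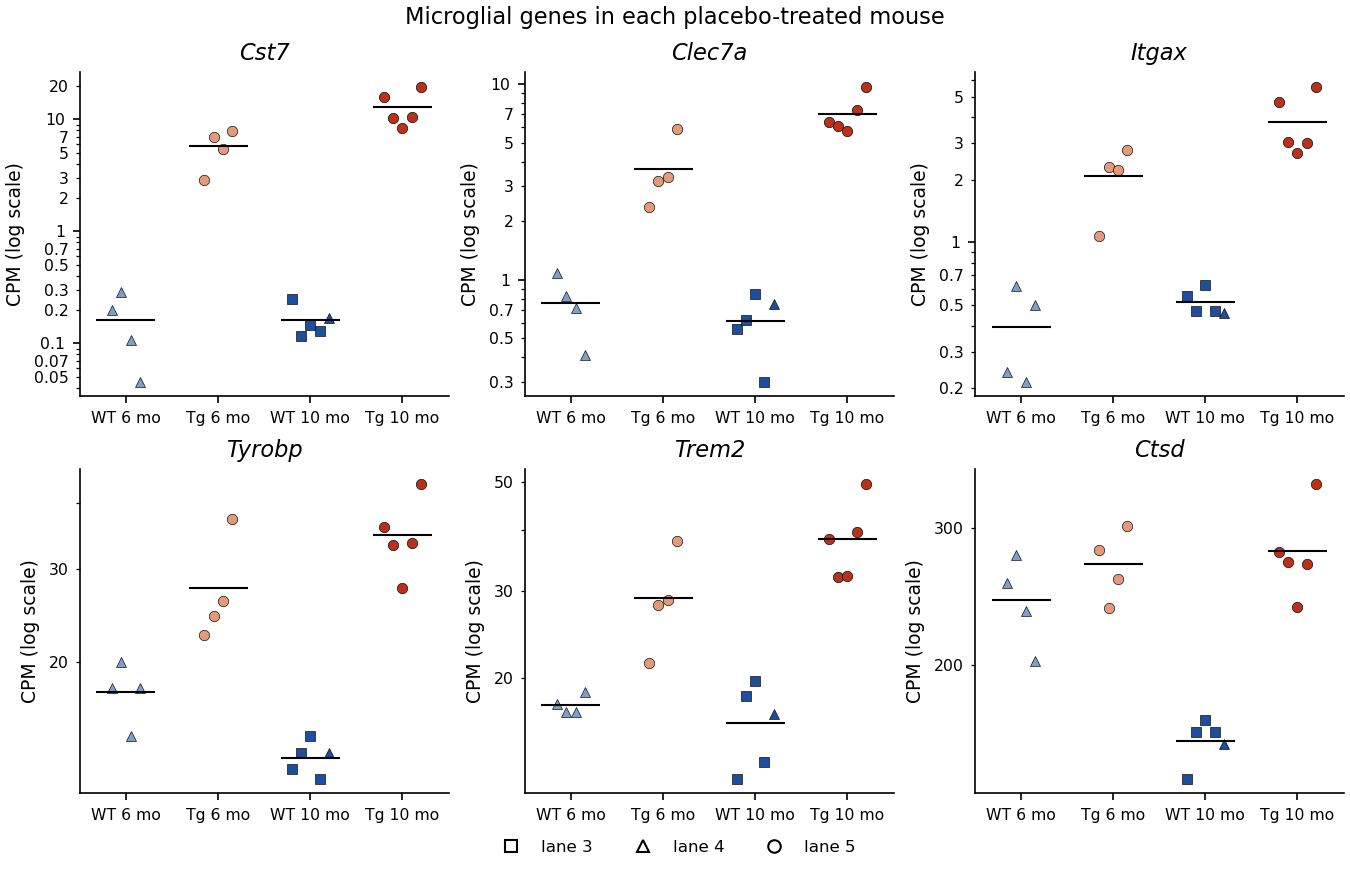
CPM of 6 microglial genes in each placebo-treated mouse, on a log axis, by genotype and age; each symbol is a mouse, its shape gives the lane, and bars mark group means. Tg mice lie above WT mice at both ages except for Ctsd at 6 months, where Tg (237 to 302 CPM) and WT (202 to 277 CPM) overlap.

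Tlr2, a receptor for lipoproteins that also binds fibrillar amyloid, was between 1.59 and 2.71 CPM in WT and between 1.43 and 2.95 CPM in Tg mice at 6 months. At 10 months it was between 1.12 and 1.76 CPM in WT and between 2.22 and 3.96 CPM in Tg mice. At 6 months the WT range lay within the Tg range, and at 10 months the groups did not overlap, with genotype effects of -0.03 ± 0.25 and 1.12 ± 0.23 and a difference of 1.15 (95% interval 0.43 to 1.87, adjusted p = 0.635). Irf8, a transcription factor that microglia need for their identity and activation, had effects of 0.47 ± 0.11 and 0.99 ± 0.09, a difference of 0.52 (0.22 to 0.82, adjusted p = 0.635).

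Of 26 genes known to be induced in microglia at plaques, all 26 were tested. At 6 months 3 were called higher (Cst7, Clec7a and Itgax), against 8 of all 17681 genes tested. At 10 months 15 were called higher, against 0.532% of all genes, and none of the 26 was called lower at either age. The median genotype effect of the 26 genes was 0.39 at 6 months and 0.80 at 10 months, against 0.01 and -0.00 over all genes tested. The difference was positive in 23 of 26 genes, with a median of 0.45, and 8 of the 26 had an unadjusted p under 0.05, all 8 in the positive direction, where the same holds for 3.4% of all genes. Without the libraries of high Xist the median was 0.24, without those with choroid plexus transcripts it was 0.31, and in lanes 4 and 5 alone it was 0.64. The median change with age was -0.19 in WT and 0.22 in Tg mice. In WT mice 6 of the 26 genes were called lower at 10 months (16.5% of all genes) and none higher. In Tg mice 3 were called higher (6.29% of all genes) and none lower. The mean log2 CPM of the list in each mouse ran from 2.70 to 3.06 (WT) and from 3.40 to 3.84 (Tg) at 6 months, and from 2.38 to 2.75 (WT) and from 3.54 to 4.21 (Tg) at 10 months.

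The neighboring lists moved less. Among 15 homeostatic microglial genes, which mark microglia away from plaques, none was called at 6 months and 3, among them Olfml3 and Fcrls, were called higher at 10 months, with a median difference of 0.14 and 15 of 15 positive. Csf1r, the growth factor receptor on which microglia depend, had effects of 0.35 ± 0.11 and 0.37 ± 0.10, and a difference of 0.02 (95% interval -0.29 to 0.33). For 15 genes of complement and Fc receptors the median difference was 0.28, with 7 called higher at 10 months. It was 0.17 over 14 Toll-like receptors and adaptors, with 4 called at 10 months, and 0.05 over 6 subunits of the phagocyte oxidase, with none called. Over all genes 0.0509% were called at 6 months and 0.532% were called higher at 10 months. Without the libraries of high Xist the medians were 0.01 for the homeostatic genes, 0.06 for complement and Fc receptors and -0.05 for the Toll-like receptors.

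Over 15 interferon-stimulated genes the median effect was 0.36 at 6 months and 0.33 at 10 months. For 13 genes of MHC class I presentation it was 0.23 and then 0.07, and for 7 genes of MHC class II presentation 0.11 and then -0.03. In these 3 lists no gene was called at either age by edgeR, and none had an unadjusted p under 0.05 for the difference. Reactive astrocyte genes, 14 in all, had medians of 0.34 and 0.33, and the gene called at 10 months was Gfap, the intermediate filament of astrocytes. Gfap was between 499 and 916 CPM in Tg mice at 6 months and between 608 and 1347 CPM at 10 months, against 383 to 552 CPM and 338 to 524 CPM in WT mice, a difference of 0.62 (95% interval -0.08 to 1.32). The difference of Gfap was 0.047 without the libraries of high Xist, 0.37 without those with choroid plexus transcripts and 0.34 in lanes 4 and 5.

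**Figure D3:**
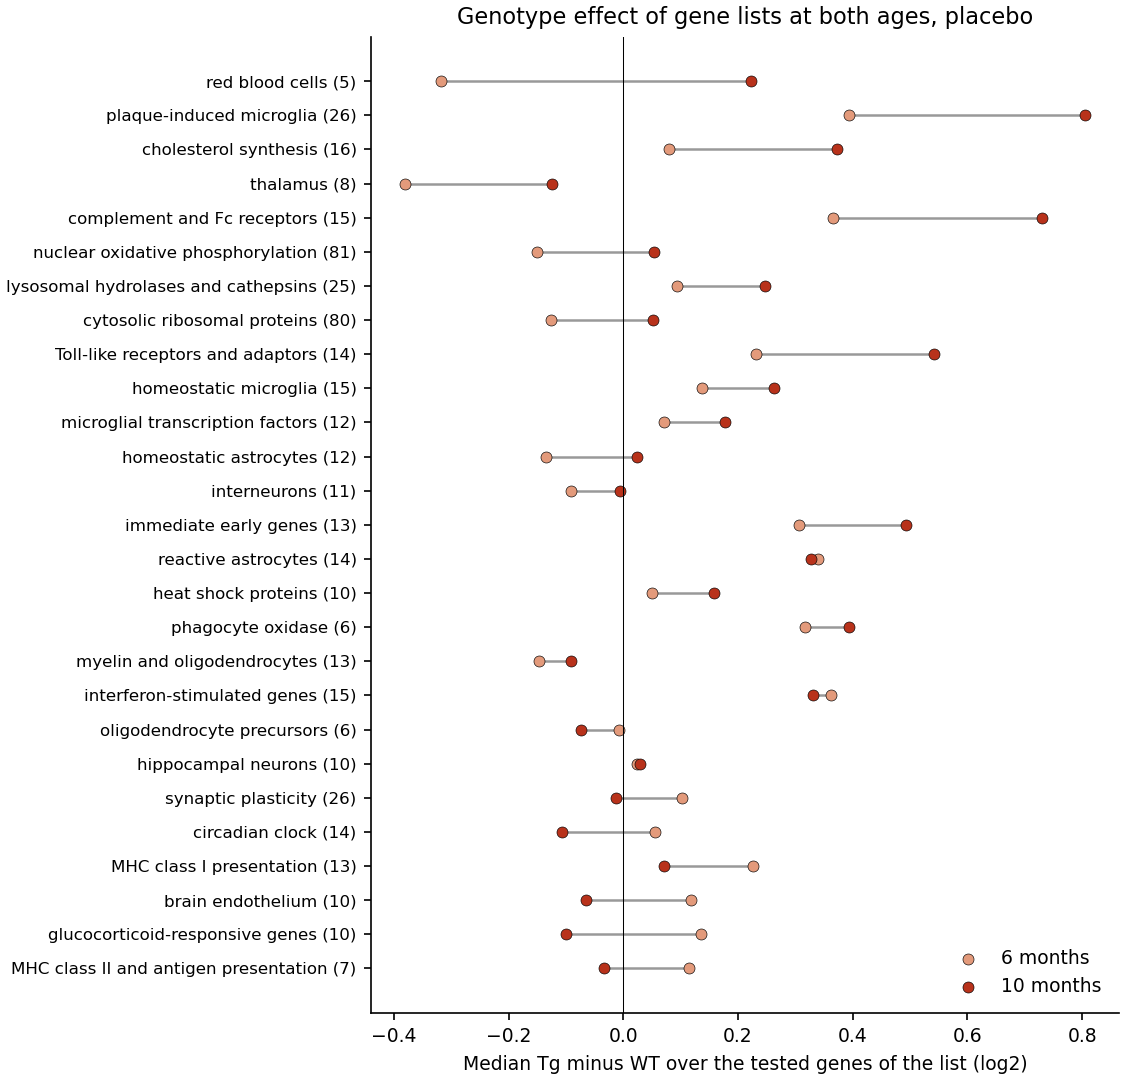
Median genotype effect (log2) over the tested genes of each list at 6 months (light) and 10 months (dark), placebo-treated mice, ordered by the median difference, with the number of genes in parentheses. The lists of plaque-induced microglia and of complement and Fc receptors reach 0.80 and 0.73 at 10 months from 0.39 and 0.37 at 6 months.

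The genes with the smallest p for the difference were not the microglial receptors. The 10 genes of smallest p in each direction are given here although none passed the threshold, with adjusted p from 0.26 to 0.635 by edgeR. In the positive direction they were Ppp1r3c, Insig1, S100a16, Ctsd, Lap3, Tbca, Rpl36al, Npc2, Mvd and Dbi. In the negative direction they were Robo4, Pcdhga4, Xdh, Hspa12b, Ankrd61, Sgk1, Npff, Cpxm1, Nvl and Pear1. DESeq2 called all 10 of the positive genes and 3 of the negative ones (Robo4, Pcdhga4 and Xdh), and with them Atp5j, Gm42979 and the pituitary hormone gene Prl.

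Ctsd, on chromosome 7 (142375911 to 142388038, GRCm38), encodes cathepsin D, the main aspartic protease of lysosomes. It measured 202, 235, 255 and 277 CPM in WT and 237, 258, 281 and 302 CPM in Tg mice at 6 months. The levels at 10 months were 143, 158, 164, 164 and 170 CPM in WT and 237, 269, 271, 279 and 341 CPM in Tg mice. The Tg mice stayed in the same range at both ages, whereas every WT mouse of 10 months was below every WT mouse of 6 months. The genotype effect was 0.15 ± 0.11 and then 0.81 ± 0.10, and the difference of 0.65 (95% interval 0.35 to 0.96, adjusted p = 0.635) was made up of a change with age of -0.60 in WT mice (adjusted p = 0.000463) and of 0.05 in Tg mice (adjusted p = 0.808). Without the libraries with choroid plexus transcripts the difference was 0.43, and in lanes 4 and 5 alone it was 0.67.

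Npc2, which hands cholesterol out of the lysosome together with Npc1, followed the same course. It was between 63.6 and 88.9 CPM in WT and between 59.6 and 78.5 CPM in Tg mice at 6 months, and between 46.0 and 56.1 CPM in WT and between 59.2 and 67.2 CPM in Tg mice at 10 months. The genotypes overlapped at 6 months and were separate at 10 months, and the difference was 0.54 (95% interval 0.27 to 0.81, adjusted p = 0.635). Hexa, a subunit of β-hexosaminidase, was already separate at 6 months, with 51.3 to 59.996 CPM in WT and 60.4 to 66.3 CPM in Tg mice, and was between 42.6 and 49.6 CPM in WT and between 63.8 and 67.8 CPM in Tg mice at 10 months. Its difference was 0.28 (0.12 to 0.45, adjusted p = 0.635). Without the libraries with choroid plexus transcripts the difference was 0.35 for Npc2 and 0.18 for Hexa. Over 25 lysosomal hydrolases and cathepsins the median difference was 0.18, with 21 of 25 positive, 10 called higher at 10 months (0.532% of all genes) and none at 6 months (0.0509% of all genes called). In the WT mice 11 of the 25 genes were called lower at 10 than at 6 months and 1 higher, where 16.5% of all genes were called lower, and in the Tg mice 2 were called lower and none higher, where 2.9% of all genes were called lower. Without the libraries with choroid plexus transcripts the median was 0.08.

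A second set concerned sterol supply. Insig1 (chromosome 5, 28071363 to 28078662) holds the sterol sensor Scap in the endoplasmic reticulum and is itself a target of the sterol-regulated factor SREBP. It measured 42.5, 43.7, 45.8 and 52.98 CPM in WT and 41.9, 42.0, 43.7 and 44.3 CPM in Tg mice at 6 months. The levels at 10 months were 33.4, 33.96, 34.01, 35.6 and 39.6 CPM in WT and 42.6, 43.1, 44.3, 47.8 and 48.9 CPM in Tg mice. Again the level in Tg mice was alike at both ages and that of WT mice was lower at 10 months, without overlap. The difference was 0.47 (95% interval 0.26 to 0.67, adjusted p = 0.635). Mvd, the decarboxylase of the mevalonate pathway, had a difference of 0.64 (0.32 to 0.96, adjusted p = 0.635) and Hmgcs1, the synthase that makes HMG-CoA, of 0.44 (-0.02 to 0.89, adjusted p = 0.812). Of 16 genes of cholesterol synthesis and uptake all 16 had a positive difference, with a median of 0.36 and 5 at an unadjusted p under 0.05 (3.4% of all genes). At 10 months 2 were called higher (0.532% of all genes), Insig1 among them. In WT mice 7 of the 16 genes were called lower at 10 than at 6 months (16.5% of all genes) and none higher, and in Tg mice none was called (2.9% of all genes lower).

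Ppp1r3c (chromosome 19, 36731731 to 36736653), which targets protein phosphatase 1 to glycogen, had the smallest p among the positive genes. It measured 56.8, 59.8, 61.2 and 65.1 CPM in WT and 46.2, 50.2, 53.1 and 53.2 CPM in Tg mice at 6 months. The levels at 10 months were 37.9, 39.1, 39.4, 40.3 and 41.8 CPM in WT and 45.3, 45.9, 45.9, 54.04 and 59.2 CPM in Tg mice. Tg mice were thus below every WT mouse at 6 months and above every WT mouse at 10 months. The genotype effect went from -0.26 ± 0.08 to 0.34 ± 0.07 (adjusted p = 0.0427 at 10 months), with a difference of 0.60 (95% interval 0.37 to 0.82, adjusted p = 0.26), and the change with age was -0.61 in WT and -0.02 in Tg mice. The remaining positive genes (S100a16, Lap3, Tbca, Rpl36al and Dbi) had differences between 0.29 and 0.58.

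**Figure D4:**
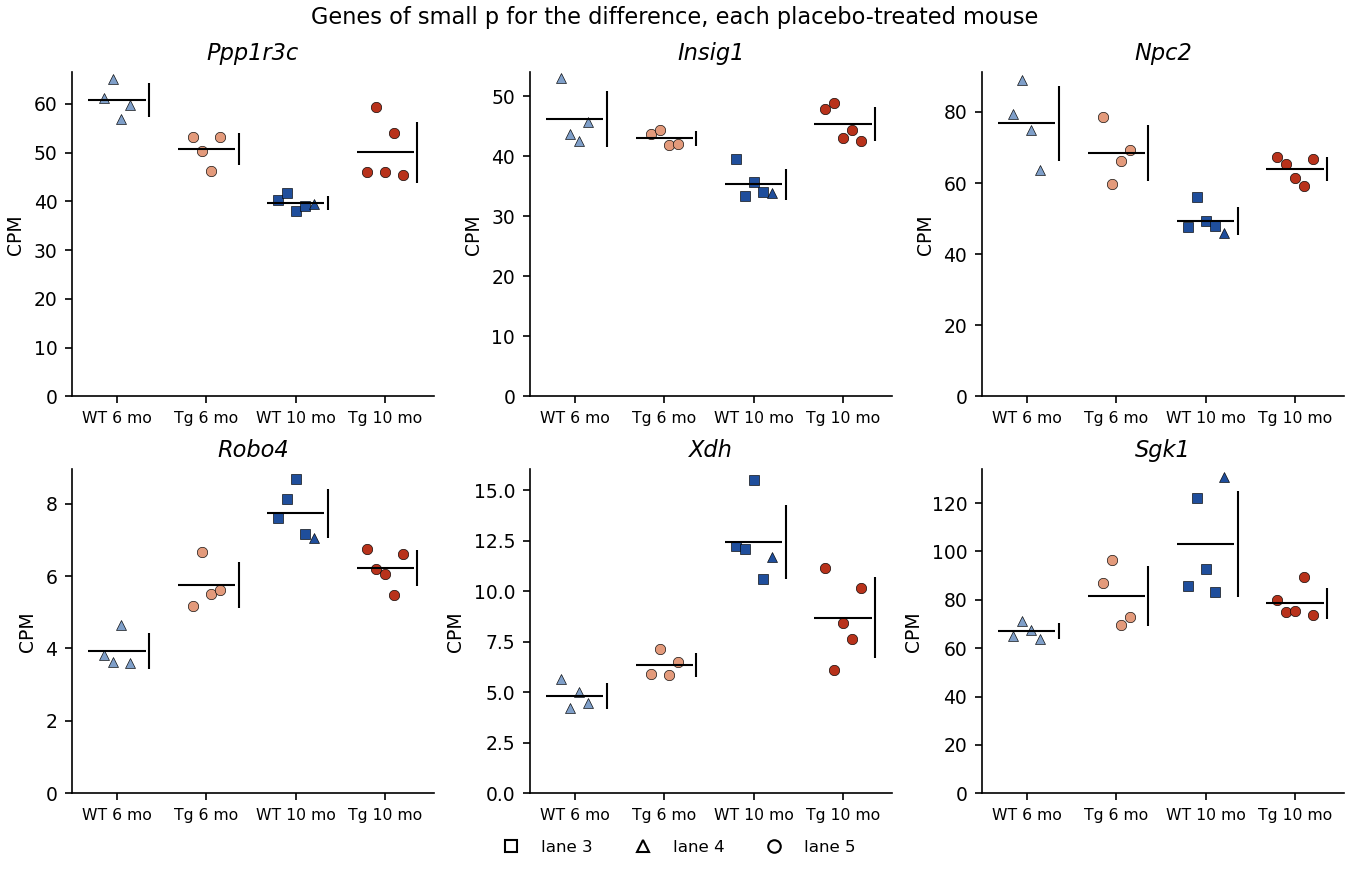
CPM of 6 genes among those with the smallest p for the difference in each placebo-treated mouse, from 0, by genotype and age; symbol shape gives the lane, horizontal bars are group means and vertical lines 1 SD on either side. The Tg groups stay near one level in Ppp1r3c, Insig1, Npc2, Robo4 and Sgk1, while the WT groups, whose lanes also differ between the ages, move. Mouse 56 is the triangle at 10 months, and in Sgk1 it was the highest WT mouse (131 CPM).

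The negative genes included several that are expressed in blood vessels. Robo4 (chromosome 9, 37401897 to 37415115), a guidance receptor of endothelial cells, measured 3.59, 3.63, 3.83 and 4.66 CPM in WT and 5.18, 5.52, 5.63 and 6.66 CPM in Tg mice at 6 months. At 10 months it measured 7.06, 7.16, 7.61, 8.12 and 8.69 CPM in WT and 5.48, 6.07, 6.19, 6.61 and 6.74 CPM in Tg mice. Tg mice were above all WT mice at 6 months and below all WT mice at 10 months, since WT mice changed by 0.97 and Tg mice by 0.11. The difference was -0.86 (95% interval -1.18 to -0.54, adjusted p = 0.26). Xdh, which encodes xanthine dehydrogenase, measured between 4.21 and 5.66 CPM in WT and between 5.86 and 7.14 CPM in Tg mice at 6 months, and between 10.6 and 15.5 CPM in WT and between 6.10 and 11.1 CPM in Tg mice at 10 months, a difference of -0.91 (-1.37 to -0.45, adjusted p = 0.635). Hspa12b, a heat shock protein of endothelium, had a difference of -0.67 (-1.01 to -0.33, adjusted p = 0.635). In WT mice 6 of 10 markers of brain endothelium were called higher at 10 months (17.3% of all genes) and in Tg mice none (6.29%). Over these 10 markers the median difference was -0.17, with 1 of 10 positive. An unadjusted p under 0.05 was found for 1 of them, in the negative direction (2.75% of all genes). That median was 0.04 without the libraries of high Xist.

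Sgk1, a kinase induced by glucocorticoids, measured between 63.9 and 71.3 CPM in WT and between 69.6 and 96.6 CPM in Tg mice at 6 months, and between 83.4 and 131 CPM in WT and between 73.7 and 89.2 CPM in Tg mice at 10 months. The WT mice rose by 0.62 (adjusted p = 0.0021), and the difference was -0.67 (95% interval -1.05 to -0.30, adjusted p = 0.635), or -1.02 in lanes 4 and 5. Over 10 glucocorticoid-responsive genes the median difference was -0.25, 4 of them had an unadjusted p under 0.05 in the negative direction (against 2.75% of all genes) and 1 in the positive direction. In WT mice 7 of the 10 were called higher (17.3% of all genes) and 1 lower at 10 months, and in Tg mice none was called.

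The difference of a gene is its change with age in Tg mice minus its change with age in WT mice, and in the genes of smallest p most of it lay in the WT mice. Between the ages the WT mice also changed lane, from lane 4 to lane 3 except for mouse 56. All Tg mice were in lane 5. A change with age in WT mice therefore cannot be told apart from one with lane. All 10 positive genes were called lower with age in WT mice and none was called in Tg mice. Of the 10 negative genes 9 were called higher with age in WT mice, while 3 were called higher and 1 lower in Tg mice. These counts follow in part from the choice of genes by the difference, and they stand against a background in which 5969 of 17681 genes (33.8%) were called between the ages in WT mice and 1626 (9.2%) in Tg mice. Fewer genes were called in WT mice without the libraries of high Xist, in lanes 4 and 5 alone and without the libraries with choroid plexus transcripts. Each of these fits leaves 1 WT mouse at 1 of the ages, so their counts cannot be set against the full number. In the 90 genes called higher at 10 months the median change with age was -0.10 in WT mice and 0.29 in Tg mice, with 17 called lower and 3 higher in WT mice and 13 called higher and none lower in Tg mice, and these directions too follow in part from choosing the genes by the levels at 10 months.

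With lanes 4 and 5 alone, which leaves out 4 WT libraries of 10 months, 0 genes were called for the difference by edgeR, with 947 at an unadjusted p under 0.05. The WT mice of 10 months are then represented by mouse 56 alone, which is assumed to vary like the other groups, and the ages still differ in sequencing run. The 20 genes were chosen on the libraries that this fit keeps, so that their values in it are no separate check of them.

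Of 81 nuclear genes of oxidative phosphorylation, 76 had a positive difference with a median of 0.19, and 33 had an unadjusted p under 0.05, all of them positive. Over all genes 8600 of 17681 had a positive difference, and 3.4% had such a p in the positive direction. The median genotype effect was -0.15 at 6 months and 0.05 at 10 months. In WT mice 71 of the 81 genes were called lower at 10 months (16.5% of all genes), and in Tg mice 16 (2.9%). Of 80 cytosolic ribosomal protein genes 71 had a positive difference, with a median of 0.18 and 21 at an unadjusted p under 0.05, all positive (3.4% of all genes). The median of the ribosomal genes was 0.10 without the libraries of high Xist, with 60 of 80 positive, and 0.13 in lanes 4 and 5. Over all tested genes the median difference was 0.01 for genes with under 1000 exonic bases, 0.09 for those with 1000 to 2000 and -0.04 for those with more than 5000. With offsets for exon length in each library the medians of the families were 0.14 and 0.15. The share of counts on genes with more than 5000 exonic bases was between 54.1% and 55.2% in WT mice at 6 months, between 55.1% and 57.5% in Tg mice at 6 months and between 56.2% and 58.2% in all mice of 10 months. The part of this composition in the families' difference was not tested beyond those offsets.

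For 26 genes of synaptic plasticity the median genotype effect was 0.10 at 6 months and -0.01 at 10 months. The difference was positive in 5 of 26, and 2 had an unadjusted p under 0.05, both negative (2.75% of all genes). Over 13 immediate early genes the medians were 0.31 and 0.49, and the scores of single mice overlapped widely, from 3.21 to 4.77 in Tg mice at 6 months and from 3.26 to 4.78 at 10 months. The median difference was 0.08 over 11 interneuron genes, -0.06 over 10 genes of hippocampal neurons, 0.01 over 13 myelin genes and -0.04 over 6 genes of oligodendrocyte precursors. Homeostatic astrocyte genes had a median of 0.11, heat shock proteins of 0.05, microglial transcription factors of 0.11 and clock genes of -0.10. Without the libraries of high Xist the medians were -0.19 for synaptic plasticity, -0.19 for immediate early genes, 0.36 for interneurons, -0.24 for hippocampal neurons, -0.33 for myelin and -0.03 for microglial transcription factors. No gene of these lists was called for genotype at either age except for Irf8 at 10 months.

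Transcripts of neighboring tissues differed between the groups, and some of them were among the genes called. Prl, the pituitary hormone prolactin, was at 0.0717, 0.0826, 0.0910 and 2.71 CPM in WT and 0.114, 0.181, 1.19 and 1.35 CPM in Tg mice at 6 months. At 10 months it was at 0.167, 1.43, 8.79, 15.2 and 335 CPM in WT and between 0.0400 and 0.166 CPM in Tg mice. The high values were those of WT mice of 10 months, above all mouse 52, and Prl and Pomc were 2 of the 8 genes called lower in Tg mice at 10 months. The others were the X-linked Kdm6a and Xist, which differ between the sexes, Pcdhga4, Rab42, Rad51ap2 and Gm37132. Choroid plexus genes had a median genotype effect of -1.23 at 6 months and -0.73 at 10 months and a difference of 0.41, thalamic markers one of 0.29, and genes of red blood cells one of 0.62. Single libraries moved these medians, which ran from 0.03 to 2.71 for the choroid plexus and from 0.07 to 0.45 for the thalamus when 1 mouse was left out. Without the libraries with high Ttr they were -0.76 for the choroid plexus, -0.12 for the thalamus and -0.24 for red blood cells. Of the 10 choroid plexus genes, 10 were called lower at 10 months in WT mice (16.5% of all genes) and 9 in Tg mice (2.9% of all genes). The part of these tissues in the differences of other genes was not tested.

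The same contrast was read in the 20 mice that received anle138b, which share no animal with the placebo-treated mice. Their Tg libraries were in lanes 5 and 6 and their WT libraries in lanes 4 and 5. No lane held both genotypes of an age, so genotype and lane cannot be told apart in this arm either. Xist was high in WT mice 33 and 83 at 6 months, and in WT mice 62, 63 and 64 and Tg mouse 93 at 10 months. There, 5 of 17875 genes (0.028%) passed the threshold for the difference of the genotype effect between the ages. They were Ctsd, St14, Cd52 and Dock2, all positive, and Gm13341, which was negative. Of the 5, 2 passed an adjusted p under 0.05, 2 were called by limma-voom, and 1 was still called without the libraries of high Xist. By edgeR the adjusted p was 0.00698 for St14, 0.0121 for Gm13341 and 0.0739 for Ctsd. Ctsd had a difference of 0.83 (95% interval 0.53 to 1.14) in anle138b-treated and of 0.65 in placebo-treated mice. St14, a membrane serine protease, had 2.38 and 0.53, Cd52, a small glycoprotein of leukocytes, 1.89 and 0.41, and Dock2, an activator of the small GTPase Rac, 0.89 and 0.03.

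Of the 20 genes of smallest p in the placebo-treated mice, 10 had the same sign in the anle138b-treated mice, where 49.7% of all genes tested in both did. Ctsd and Npc2 were the 2 genes of the same sign with an unadjusted p under 0.05 there, Npc2 with a difference of 0.39 (0.12 to 0.65). Microglial genes outside the 20 were positive too, with 1.18 (0.68 to 1.69) for Tyrobp, 1.17 (0.64 to 1.70) for Trem2 and 2.18 (1.12 to 3.24) for Clec7a. The sterol genes were near 0, with -0.09 (-0.36 to 0.18) for Insig1 and -0.09 (-0.47 to 0.28) for Mvd, as were Ppp1r3c with 0.07 (-0.22 to 0.36) and Robo4 with 0.09 (-0.29 to 0.48). Choroid plexus genes had a median difference of 2.24 in the anle138b-treated mice, with 10 of 10 positive, against 0.41 in the placebo-treated mice. The part of this tissue in the values of Ctsd, Npc2 and the other genes was not tested.

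Some lists split in the same manner and others did not. In the anle138b-treated mice the difference was positive in 23 of 26 plaque-induced microglial genes, with a median of 0.88, and in 24 of 25 lysosomal genes, with a median of 0.31. It was positive in 2 of 16 cholesterol genes, with a median of -0.08, and in 15 of 81 genes of oxidative phosphorylation, with a median of -0.09. Brain endothelial genes had negative medians in both arms, -0.17 in placebo-treated and -0.12 in anle138b-treated mice. The medians of MHC class I, MHC class II and interferon-stimulated genes were -0.13, -0.31 and -0.02 in placebo-treated mice. In anle138b-treated mice they were 0.22, 0.22 and 0.21. The placebo medians of these lists changed with the libraries used. Without the libraries of high Xist they were -0.08, 0.07 and 0.04, in the same order. Without those with choroid plexus transcripts they were -0.23, -0.42 and 0.15, and in lanes 4 and 5 they were 0.08, -0.09 and 0.27. The interneuron median was 0.08 in placebo-treated and -0.42 in anle138b-treated mice. The test of placebo against anle138b for these differences called 0 of 18232 genes (0%) in edgeR, with 1132 at an unadjusted p under 0.05, while DESeq2 called 8 and limma-voom 1. For the 20 genes this test gave an unadjusted p under 0.05 in 15, against 6.21% of all genes. That count follows in part from choosing the 20 genes by the placebo difference, which the test contains. Their smallest adjusted p was 0.16 (Npff), so that a difference between the treatment arms was not shown for any single gene of them.

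**Figure D5:**
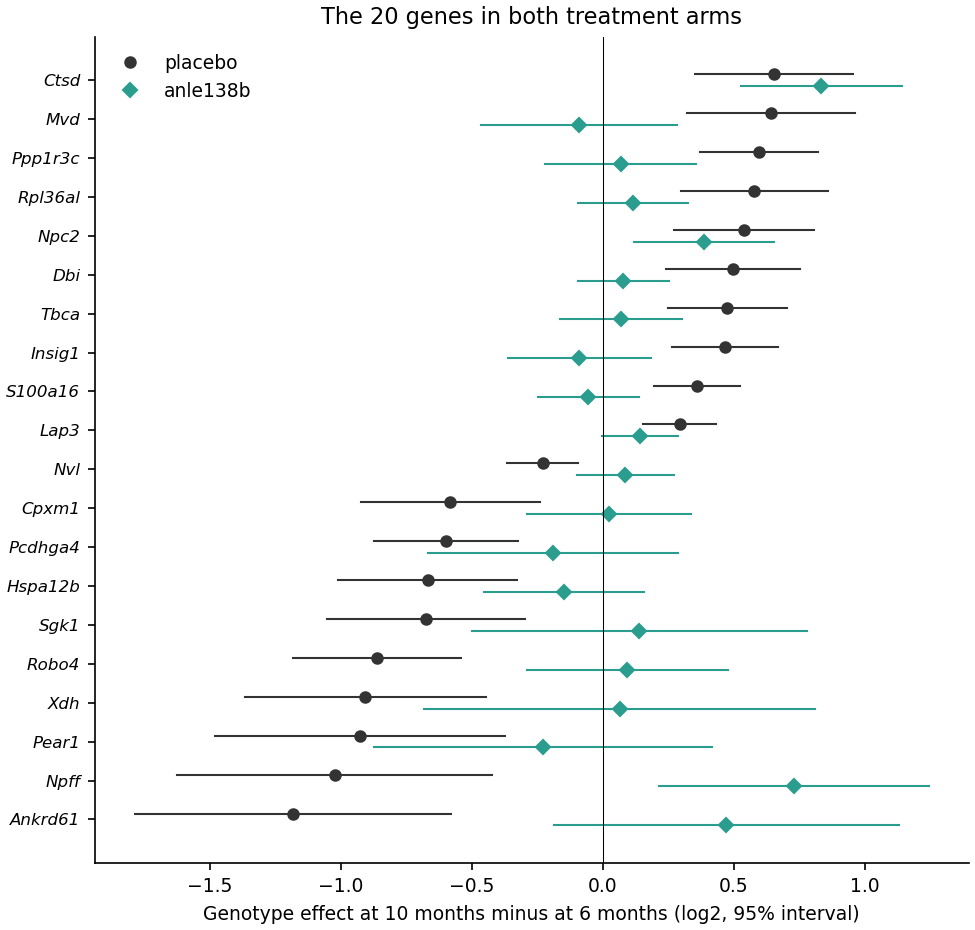
Genotype effect at 10 months minus that at 6 months (log2) with its 95% interval for the 20 genes, in placebo-treated mice (circles), in which the genes were chosen, and in anle138b-treated mice (diamonds). The intervals of Ctsd and Npc2 lie above 0 in both arms, and that of Npff lies on opposite sides of 0.

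A list of genes chosen by their calls in the anle138b-treated mice gave a further reading. At 10 months 143 genes (0.8% of those tested) were called higher in anle138b-treated Tg than in anle138b-treated WT mice, and 137 of them remained without the transgene reads and the withheld and untested genes. In the placebo-treated mice all 137 were higher in Tg at 10 months and 129 at 6 months, with median effects of 0.66 and 0.37, against 8544 and 9163 of 17672 genes. The difference between the ages was positive in 118 of the 137 genes, with a median of 0.27 and quartiles of 0.08 and 0.47, against a median of -0.01 over all genes. It had an unadjusted p under 0.05 in 29 of the 137 genes, or 21.2%, all of them positive, against 3.4% of all genes. The list was chosen by effects at 10 months, so it can favor genes with larger effects at that age than at 6 months. Its genes also had to pass the count filter in the placebo-treated mice. Among the largest differences in this list were those of Asb10 (1.68), Ccl4 (1.49), Clec7a (1.23), Cst7 (1.21) and Tlr2 (1.15), and Ccl3, a chemokine of activated microglia, had 1.09. The 95% intervals ran from 0.63 to 2.72 for Asb10, from -0.03 to 3.01 for Ccl4 and from 0.05 to 2.12 for Ccl3. Cst7 and Ccl4 had low counts in WT mice.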

How the data were processed

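Per the study's methods, the authors prepared TruSeq mRNA libraries, aligned reads by STAR (mm10) and assigned them to genes by HTSeq. They deposited raw counts of 48709 genes in each mouse, neither normalized nor filtered, and these counts were used as deposited. The annotation release and the use of strand are not given in the sources used here, so overlapping and antisense genes cannot be told apart. Symbols and coordinates came from GENCODE M21 (GRCm38, 48349 genes matched).

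Genes passing filterByExpr of edgeR (minimum count 10, minimum total 15) were scaled by TMM factors, then fitted in edgeR 4.0.16 (R 4.3.3; quasi-likelihood, robust), with the 4 placebo groups in one fit, at a Benjamini-Hochberg adjusted p under 0.1. CPM are TMM-scaled, and list scores are means of log2 CPM (prior count 2). Alternatives used DESeq2 1.42.0, limma 3.58.1 (voom), RLE size factors, no filter, a threshold of 0.05, a covariate for Y-linked expression, all 38 mice, a replicate block, and libraries left out. Exon length offsets, lanes 4 and 5 alone and leaving out libraries with Ttr over 1000 CPM were chosen after seeing the data. Scripts were tested on simulated data. Nothing pairs the mice: correlations of same-numbered Tg and WT deviations ran from -0.50 to 0.53. The libraries are single mice, and none was a duplicate of another.

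The members and gene lists were chosen with earlier results of these data known. Genes were named by rule: for the difference, the 10 of smallest p in each direction, since fewer passed; at each age, up to 10 called in each direction by p; App, Prnp and Lamr1-ps1; from each list the 3 with the highest mean CPM and any called member. Genes named by Gm numbers are named where they passed. Asb10, Dock2, St14, Gm42979, Atp5j and the other genes cited from the 102 were chosen after their values were seen. Values of a withheld item are left out.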

Additional observations from a re-analysis of the deposited data

Results flagged for a closer look

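Single mice stood apart from the rest of their group by Dixon's criterion in 13 of 188 sets of values examined, where chance flags about 1 in 20 (9.4 sets). Prl was 335 CPM in WT mouse 52 at 10 months (others 0.167 to 15.2), 2.71 CPM in WT mouse 30 at 6 months (others 0.0717 to 0.091) and 0.166 CPM in Tg mouse 86 at 10 months (others 0.04 to 0.0729). Ttr was 6320 CPM in Tg mouse 17 at 6 months (others 32.3 to 656), and the mean log2 CPM of hippocampal neuron genes was lowest in the same mouse, at 7.23 (others 7.41 to 7.44). App was 1760 CPM in WT mouse 55 at 10 months (others 1590 to 1620).

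Tg mouse 75 at 6 months had the highest mean log2 CPM of plaque-induced microglial genes, 3.84 (others 3.40 to 3.46), and of homeostatic microglial genes, 5.23 (others 5.01 to 5.04). The mean of MHC class II genes was 1.56 in Tg mouse 100 (others 1.02 to 1.16) and that of heat shock proteins was 6.02 in Tg mouse 86 (others 5.65 to 5.75), both at 10 months. The mean of oligodendrocyte precursor genes was 4.16 in WT mouse 56 at 10 months (others 4.29 to 4.33). In WT mouse 37 at 6 months the mean of brain endothelial genes was 4.36 (others 4.19 to 4.21) and that of cholesterol genes was 5.16 (others 5.30 to 5.32).

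In the anle138b-treated mice the test of the difference between the ages called St14 (2.38), Cd52 (1.89), Dock2 (0.888), Ctsd (0.834) and Gm13341 (-1.71) on the log2 scale.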

How the results depend on the processing

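For the difference of the genotype effect in placebo-treated mice, DESeq2 called 16 genes and the fit without the libraries with Ttr over 1000 CPM called 1, against 0 in edgeR, and leaving out 1 mouse at a time gave 0 to 1 (1 without Tg mouse 57). For genotype at 6 months, DESeq2 called 63 and a fit of all 38 mice 42, against 9, and leaving out 1 mouse gave 7 to 249 (249 without Tg mouse 17). For genotype at 10 months, the counts against 102 were 45 with Y-linked expression as a covariate, 5 in lanes 4 and 5, 55 with the 2 groups alone and 13 without the libraries of high Xist. For age in WT mice they were 2237 in lanes 4 and 5, 1528 without the libraries with high Ttr and 188 without those of high Xist, against 5969. For age in Tg mice the counts were 882 at an adjusted p under 0.05, 922 with no filter and 614 without the libraries with high Ttr, against 1626, and 756 to 2291 with 1 mouse left out (under 1000 without Tg mouse 17, 74, 75 or 91). For the difference in anle138b-treated mice they were 2 at an adjusted p under 0.05, 44 with DESeq2 and 2 with limma-voom, against 5, and 2 to 23 with 1 mouse left out, 15 of these 20 fits moving the count by over 1.5 times. For placebo against anle138b they were 8 with DESeq2 and 1 with limma-voom, against 0, and 0 to 6 with 1 mouse left out.

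The replicate block gave 0 genes for the difference in placebo-treated mice, 6 at 6 months, 64 at 10 months, 13 for the difference in anle138b-treated mice and 2 for placebo against anle138b, but the replicate numbers do not pair the mice. No paired analysis was possible because the numbers are blocks within an age for the 2 comparisons between ages within a genotype.

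Among the 56 genes whose difference was recomputed, 593 of 616 values kept their direction and side of the threshold, 16 passed it by DESeq2 and 7 changed sign. Prnp was -0.0277 with exon length offsets and -0.0142 without the libraries of high Xist, with -0.0395 to 0.0543 when 1 mouse was left out. Slamf9 was 0.21 in lanes 4 and 5 and 0.0895 without the libraries with high Ttr, with -0.156 to 0.0673 when 1 mouse was left out. Cst7 was -0.72 without the libraries with high Ttr, and without those of high Xist Itgax was -0.22 and Cd52 -0.0759. The cause was not tested. Of 330 list medians, 24 moved by more than the spread between mice. Low counts limit Cst7, Ccl4 and Itgax in WT mice.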
